A study of Mus musculus with 6 samples.

Results

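The non-targeting control libraries of a pair of siRNA experiments in tumour-bearing mice were compared with each other. The comparison used 3 of the 6 libraries of the study, namely the 2 control libraries of the high experiment and the 1 control library of the low experiment, and no library that had received Satb1 siRNA. High and low are the labels' names for how far Satb1, a chromatin organiser, fell in the treated arm of each experiment, so among controls they name only the experiment. All 3 libraries came from C57BL/6 mice in which ID8-Defb29/Vegf-a tumours had grown for 32 to 38 days; ID8 is a mouse ovarian cancer line, here engineered to make beta-defensin 29 and VEGF-A. All mice received 100 µg of non-targeting (NT) siRNA in nanocomplexes of rhodamine-labelled polyethylenimine, a polymer carrier that phagocytic cells take up. The labels call the cells cancer-associated dendritic cells and name one Trizol extraction and one stranded total RNA kit for every library. The labels and the table's header do not say how the cells were isolated, whether animals were pooled or whether the high NT repeats are separate mice. The labels give no age or sex. Of 27634 genes in the deposited table, 13717 averaged at least 1 CPM (counts relative to the library's TMM-scaled total) over the experiments, and these are called the tested genes.

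Dendritic cells take up antigen in tissue, mature on contact with microbial or inflammatory signals, and then present peptides on MHC class II while they move to lymph nodes under the receptor Ccr7. Macrophages and monocytes of the peritoneal cavity share many of their genes, Itgax and MHC class II among them. Type I interferon acts through a receptor, the STAT factors and a set of antiviral target genes, and NF-kappaB drives cytokine and chemokine genes in all of these cells.

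Library size differed between the experiments. Counts summed to 67774712 and 71272720 for high NT and 27029554 for low NT, and 4655, 4629 and 9623 genes had no count. The high NT repeats were nearly identical, with a chi-square of 1.202 per gene over 21413 genes, where counting noise alone gives about 1. They were therefore counted as 1 sample, and 11 of the 13717 tested genes (0.0802%) lay 2-fold or more apart between them. Each experiment thus had 1 control sample. No difference below has a replicate check or a p-value, and experiment, animal, processing batch and library cannot be told apart. A gene is called higher or lower in low NT only where its ratio was at least 2-fold (1 on the log2 scale). Folds carry 95% counting intervals, which cover counting error only and not the choice of scaling.

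The label was first set against defining markers of dendritic cells, using the authors' deposited FPKM values, which are relative to gene length. Itgax, the CD11c integrin used to define dendritic cells, stood at 5.97 and 6.07 FPKM in the high NT libraries and at 27.3 FPKM in low NT. Flt3, the growth factor receptor of the classical dendritic lineage, was at 0.25, 0.30 and 3.10 FPKM, and Zbtb46, its transcription factor, at 1.95, 2.00 and 2.90 FPKM. The macrophage genes Lyz2, Csf1r and Emr1 were above these in both experiments. The lysozyme gene Lyz2 was the third highest of all genes by FPKM in each library, at 5780, 5787 and 8164 FPKM. Csf1r, the receptor for the macrophage growth factor, reached 120, 120 and 310 FPKM, and Emr1, which encodes F4/80, reached 106, 106 and 88.3 FPKM. Itgax, Flt3 and Zbtb46 were thus detected in all 3 libraries, with smaller values in high NT, and lay below Lyz2, Csf1r and Emr1 in each. This did not hold for every macrophage marker. Mertk had 53.8, 53.9 and 52.3 FPKM, and Cd163 had 76.8, 76.5 and 18.5 FPKM, below Itgax in low NT. Nor did it hold for every gene linked to dendritic cells. The MHC class II gene H2-Ab1 had 205, 204 and 1004 FPKM, above Csf1r and Emr1 in each library. Sirpa, a marker in the list of type 2 and monocyte-derived dendritic cells, had 126, 126 and 169 FPKM, above Emr1 in each. The libraries are called high NT and low NT below, without a cell type name.

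The control libraries differed at a large share of the genes. Of the 13717 tested genes, 3772 (27.5%) were at least 2-fold higher in low NT and 2979 (21.7%) at least 2-fold lower, with a median log2 ratio of 0.13. The split depended on scaling: with library totals alone 2069 genes (15.1%) were higher and 5065 (36.9%) lower, as the median of all genes moved by -0.67. The shares of 27.5% and 21.7% are the background of every count of list members given in the following. Because the filter is on the mean, a gene near 0 in one experiment is tested only through the other. Such a gene is then called by construction, in the lists as in the background. Of the 13717 tested genes, 2106 were higher and 2785 lower in all 4 scalings (TMM, library totals, DESeq2 size factors, upper quartile). Counts given for a single other scaling apply the 1 CPM filter anew under that scaling and cover slightly different genes (13727 with library totals). A single count can therefore be below the count for all 4.

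**Figure D1:**
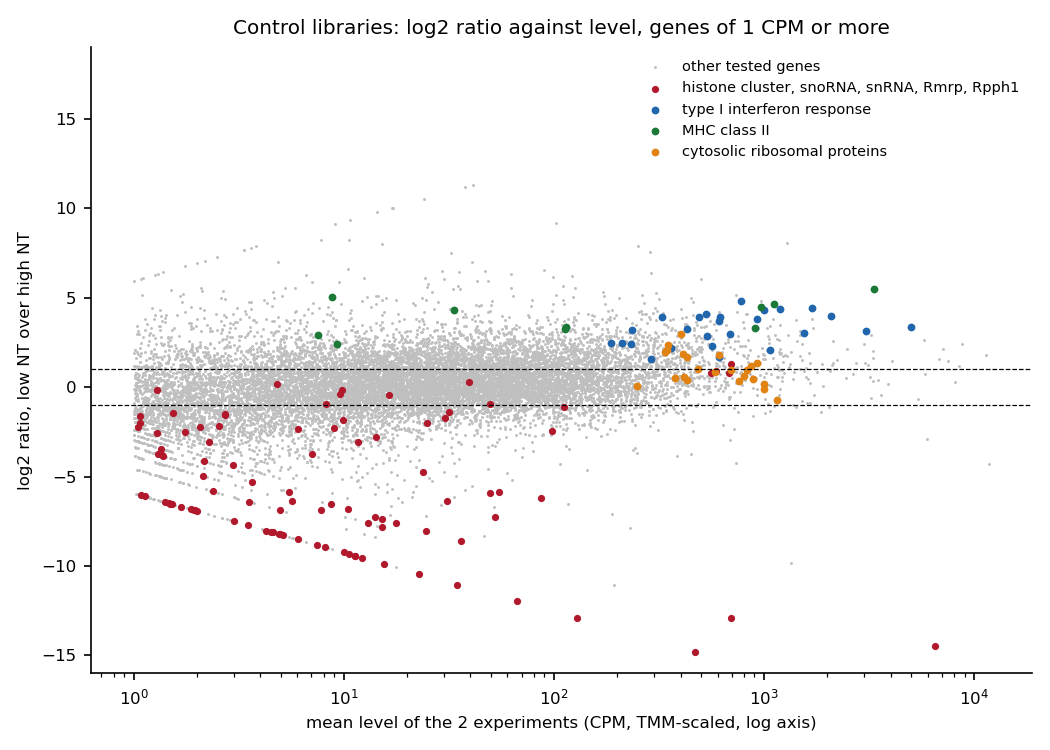
Each point is a tested gene, by its mean level over the experiments (CPM, log axis) and its log2 ratio of low NT over high NT; dashed lines mark 2-fold. All 26 interferon response genes (blue) and all 10 MHC class II genes (green) lie above the upper line, while histone cluster and small RNA genes (red) reach -14.80.

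The 15 largest rises among named genes of at least 10 CPM had log2 ratios from 6.31 to 10.03. The largest was that of Atp6v0c, a subunit of the proton pump of acid vesicles, with 0 counts in both high NT libraries and 34.4 CPM in low NT. The authors' deposited table nevertheless gives Atp6v0c 0.85 and 1.44 FPKM in high NT against 22.8 FPKM in low NT, so its count of 0 is no measure of absence and no fold is given. Ly6c2, a surface antigen of inflammatory monocytes, had 0.367 and 0.289 CPM in high NT against 204 CPM in low NT, a ratio of 620-fold (475 to 832). Cxcl10, an interferon-induced attractant of T cells, had 9.14 and 10.1 CPM against 2549 CPM, a ratio of 265-fold (251 to 278). Retnla, a secreted resistin-like protein of alternatively activated macrophages, had 2.11 and 2.01 CPM against 502 CPM, a ratio of 243-fold (218 to 272). Ccl5, a T cell and monocyte chemokine, had 2.96 and 3.0 CPM against 569 CPM, a ratio of 191-fold (174 to 209). The other genes among the 15 were Rsc1a1, Aplnr, Ngp, Ccl17, Serpina3g, Mmp25, Lipg, Ccl22, Ccr7 and Rps16. Gapdh, a glycolytic enzyme of all cells, was listed at 24, 18 and 13 counts only, so a low count in this table need not mean a low level. How reads of near-identical gene copies were divided was not tested.

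Antigen presentation genes were higher in low NT as a group. All 10 tested MHC class II members were higher, with a median log2 ratio of 3.83 against 0.13 over all tested genes. Cd74, the invariant chain that guides class II molecules to endosomes, had 146 and 144 CPM against 6532 CPM, a ratio of 45.1-fold (44.5 to 45.8). By the authors' FPKM it stood at positions 506 and 513 among all genes in high NT and at position 8 in low NT. The peptide-binding chains H2-Aa, H2-Ab1 and H2-Eb1 had log2 ratios of 4.65, 3.30 and 4.49. Ciita, the master regulator of class II transcription, had 3.29 and 3.02 CPM against 63.6 CPM. Of the MHC class I processing list 8 of 9 tested members were higher, with a median of 2.996: the peptide transporter gene Tap1 had 130 and 131 CPM against 948 CPM, and the loading factor Tapbp had 92.4 and 93.5 CPM against 1552 CPM. The exception was the trimming peptidase Erap1, at 106 and 105 against 131 CPM. B2m and H2-D1 were not analysed here.

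The dendritic cell lists had more higher than lower members, to different degrees. In the classical list 8 of 10 tested members were higher (5 in all 4 scalings), with a median log2 ratio of 1.65. Itgax went from 19.1 and 18.97 CPM to 153 CPM (8.03-fold, 7.64 to 8.45), and Flt3 from 0.823 and 0.989 CPM to 15.7 CPM (17.4-fold, 14.2 to 21.2). Zbtb46 had 4.49 and 4.64 CPM against 9.38 CPM, a ratio of 2.05-fold that fell to a log2 ratio of 0.38 with library totals. Kit, the stem cell factor receptor, had 25.6 and 24.6 against 20.3 CPM. All 8 tested markers of type 1 dendritic cells, which cross-present antigen, were higher (median 2.42, 5 of 8 in all 4 scalings): Tlr3 had 24.0 and 24.7 against 337 CPM and Clec9a 1.44 and 1.34 against 8.48 CPM. All 10 tested markers of mature migratory dendritic cells were higher (median 3.55, 9 of 10 in all 4 scalings). Ccr7 had 1.37 and 1.68 against 123 CPM (80.7-fold, 70.6 to 92.1), and the actin bundler Fscn1 had 0.658 and 0.675 against 47.8 CPM. Of 8 tested markers of type 2 and monocyte-derived dendritic cells 5 were higher and 0 lower, but 2 in all 4 scalings, and the median of 1.08 became 0.42 with library totals. Of 8 tested markers of plasmacytoid dendritic cells 5 were higher and 0 lower, 4 of them in all 4 scalings (median 1.87). Ly6d (0.165 and 0.145 against 3.36 CPM) and Pacsin1 (0.291 and 0.326 against 3.66 CPM) passed the filter through low NT alone. The same holds for Cd209a of the type 2 list (0.228 and 0.217 against 6.82 CPM). Their calls are no separate evidence for either list. These are bulk libraries, in which more cells of a type and more RNA per cell cannot be told apart. Markers of other cell types moved with these genes and are given further on; their part in the differences was not tested.

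**Figure D2:**
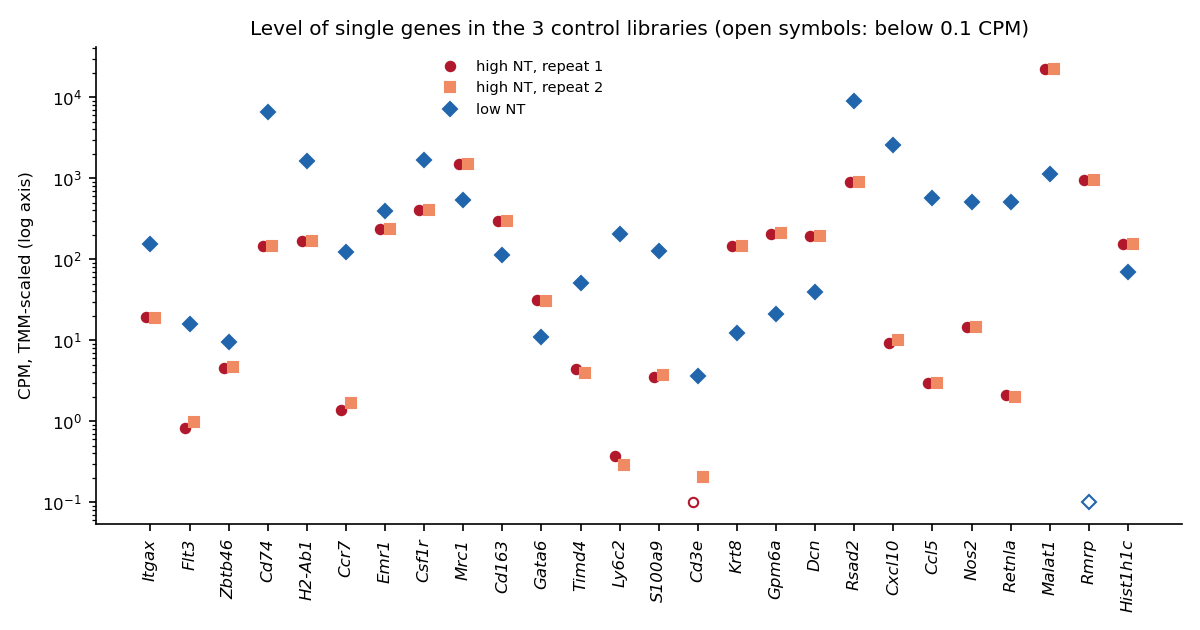
Level of 26 genes (CPM, TMM-scaled, log axis) in the 2 high NT repeats (red circle, orange square) and in low NT (blue diamond). The repeats lie almost on each other for most genes, while Cd74 rises from 146 and 144 to 6532 CPM and Malat1 falls from 22451 and 22484 to 1123 CPM; open symbols are values below 0.1 CPM.

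All 26 tested genes of the type I interferon response were higher in low NT, with a median log2 ratio of 3.22 and a summed level of 4741 and 4766 CPM in high NT against 45728 CPM in low NT. In all 4 scalings 25 of the 26 were higher. Rsad2, the antiviral enzyme viperin, had 887 and 887 CPM against 9071 CPM (10.2-fold, 10.2 to 10.3). Irf7, the factor that amplifies interferon production, had 151 and 153 CPM against 3247 CPM (21.4-fold, 21.1 to 21.7). Isg15, a ubiquitin-like modifier, had 94.4 and 94.96 CPM against 1908 CPM (20.1-fold, 19.8 to 20.5). The smallest ratio of the list was that of the helicase Ddx60, at 142 and 147 against 434 CPM, whose log2 ratio of 1.59 became 0.93 with library totals. The ligand gene Ifnb1 itself had 383 and 348 counts in high NT and 1280 in low NT, or 4.85 and 4.198 against 64.2 CPM. The signal transducer Stat2 had 77.6 and 78.2 against 1157 CPM. A list of guanylate-binding and immunity-related GTPases, effectors of interferon gamma that attack vacuoles of intracellular microbes, was drawn up after values had been seen. All its 12 members were higher, from 1.74 (Gbp6) to 5.30 (Gbp4) on the log2 scale. Ifng, the gene of that interferon, was below 1 CPM in every library, with 0.0253 and 0.0362 against 0.501 CPM.

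Promoters of 3 of these interferon-responsive genes are shown because they hold the core letters of the interferon-stimulated response element, GAAANNGAAA, searched on both strands in the 250 bases before the gene start (RefSeq, GRCm38.p6; the deposited table was made on mm9). Isg15 lies at chr4:156200819-156201068 on the minus strand, Ifit3 at chr19:34583279-34583528 on the plus strand and Cxcl10 at chr5:92348890-92349139 on the minus strand. Capitals mark the matches, which overlap each other in Isg15.
Isg15: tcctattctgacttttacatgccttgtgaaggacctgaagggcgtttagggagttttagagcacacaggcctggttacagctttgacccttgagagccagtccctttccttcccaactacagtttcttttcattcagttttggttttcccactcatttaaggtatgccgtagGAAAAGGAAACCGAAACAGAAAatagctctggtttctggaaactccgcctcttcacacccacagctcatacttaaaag
Ifit3: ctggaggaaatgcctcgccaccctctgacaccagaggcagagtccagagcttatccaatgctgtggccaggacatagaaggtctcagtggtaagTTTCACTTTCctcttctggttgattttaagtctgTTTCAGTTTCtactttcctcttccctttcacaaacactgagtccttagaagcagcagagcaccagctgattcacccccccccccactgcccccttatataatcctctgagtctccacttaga
Cxcl10: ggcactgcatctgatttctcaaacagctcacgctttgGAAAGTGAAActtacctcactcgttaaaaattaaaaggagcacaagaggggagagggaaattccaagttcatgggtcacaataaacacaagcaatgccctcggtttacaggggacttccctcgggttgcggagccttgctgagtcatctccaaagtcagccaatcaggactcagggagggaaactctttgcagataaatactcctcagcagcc
The core was present in the promoter of 9 of 20 interferon response genes with a RefSeq promoter (45.0%), of 6 of 6 GTPase genes, and of 936 of all 27025 genes (3.46%). It was present in 3 of 15 cytosolic ribosomal protein genes and in 0 of 15 inflammatory cytokine genes. A kappaB-like word, GGGANNTTCC, was present in 2 of 13 genes of the NF-kappaB list and in 3 of 15 inflammatory cytokine genes, against 368 of 27025 genes (1.36%). A match is a description of letters, and no binding was measured.

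**Figure D3:**
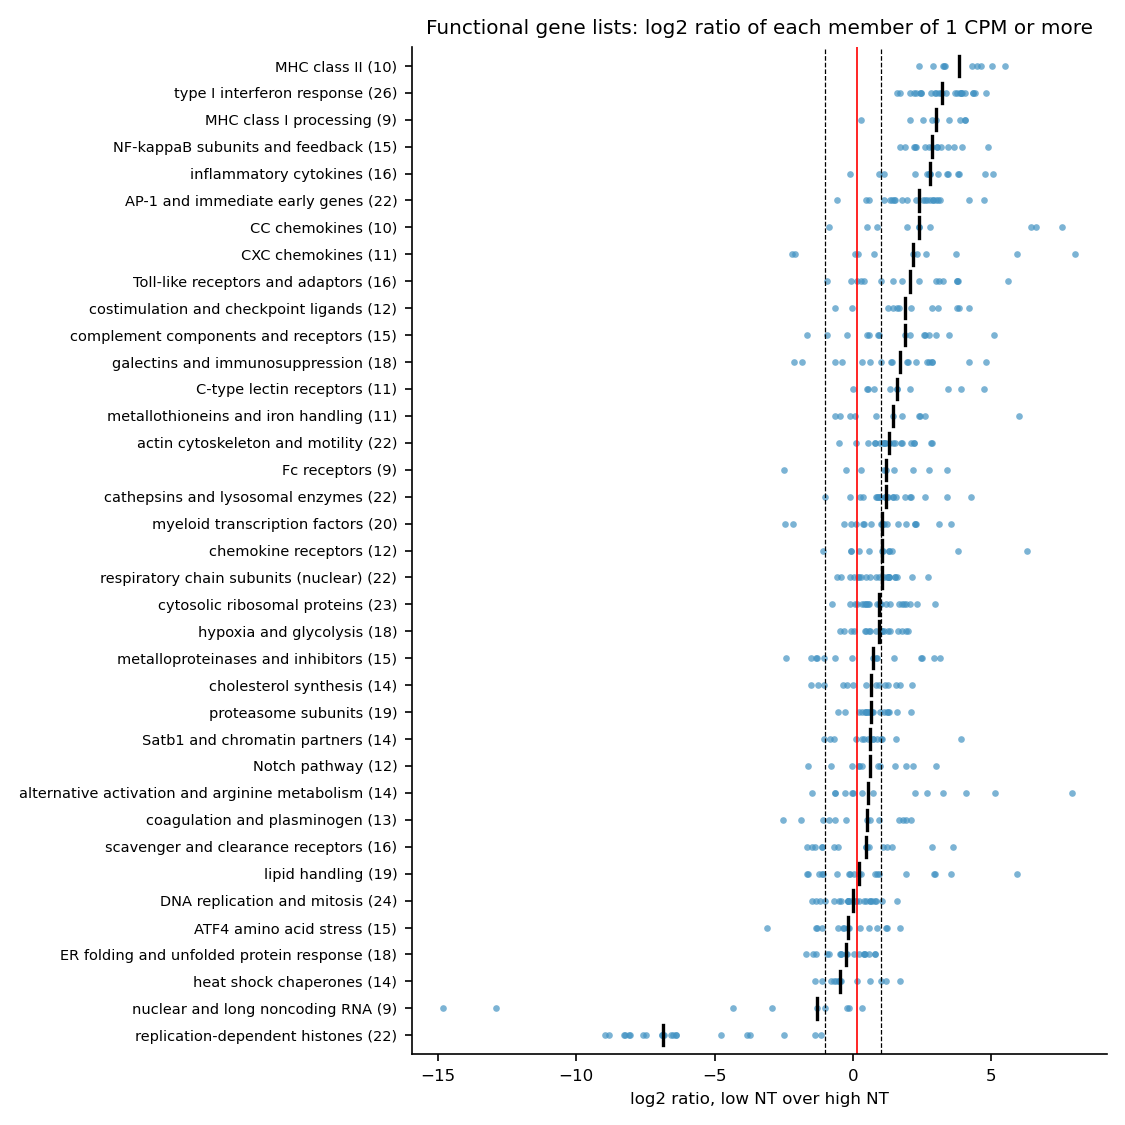
Each row is a functional gene list with its number of tested members in brackets, each point a member's log2 ratio of low NT over high NT, and the black bar the list's median; the red line is the median of all tested genes, 0.13, and dashed lines mark 2-fold. MHC class II (3.83) and the type I interferon response (3.22) stand at the top, and replication-dependent histones (-6.85) at the bottom.

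Inflammatory signalling genes were higher from receptor to feedback inhibitor. Of 16 tested Toll-like receptors and adaptors 11 were higher (9 in all 4 scalings) and 0 lower, with a median of 2.07. Tlr9, the endosomal DNA sensor, had 4.08 and 4.66 CPM against 216 CPM (49.4-fold, 45.6 to 53.5), and the adaptor Myd88 34.6 and 33.5 against 324 CPM. Tlr4, the lipopolysaccharide receptor, had 297 and 304 against 158 CPM, a log2 ratio of -0.93. All 15 tested NF-kappaB subunits and feedback genes were higher, in each of the 4 scalings, with a median of 2.87. They included the subunits Rela (24.8 and 24.7 against 223 CPM) and Nfkb1 (76.4 and 77.6 against 285 CPM), the inhibitor Nfkbia (75.8 and 74.0 against 502 CPM) and the signalling adaptor Traf1 (5.15 and 5.19 against 152 CPM). Of 22 tested AP-1 and immediate early genes 19 were higher (14 in all 4 scalings) and 0 lower, with a median of 2.40. Zfp36, which destabilises cytokine mRNA, had 33.2 and 32.8 against 886 CPM, Egr1 24.4 and 23.5 against 213 CPM, and Fos 83.6 and 82.8 against 404 CPM. Jund had 76.4 and 78.0 against 51.9 CPM and, at a log2 ratio of -0.57, went the other way.

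Of 16 tested inflammatory cytokine genes 14 were higher (13 in all 4 scalings) and 0 lower, with a median of 2.80. Tnf had 27.8 and 27.1 CPM against 289 CPM (10.5-fold, 10.1 to 10.9), and Il6 2.05 and 1.88 against 54.4 CPM (27.6-fold, 24.4 to 31.5). Il1b had 5.60 and 5.16 against 75.8 CPM, and its antagonist Il1rn 63.3 and 65.6 against 542 CPM. Both chains of interleukin 27 were higher, Il27 at 0.798 and 0.820 against 28.1 CPM and Ebi3 at 2.28 and 2.68 against 27.3 CPM. The anti-inflammatory genes Il10 (3.75 and 3.53 against 24.4 CPM) and Tgfb1 (23 and 22.6 against 147 CPM) were higher as well. Il12b, the chain shared by interleukins 12 and 23, had only 0.684 and 0.712 against 1.55 CPM. Pro-inflammatory and anti-inflammatory cytokine genes thus had higher values in the same library.

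The chemokines did not move together. Of 10 tested CC chemokines 7 were higher and 0 lower (median 2.38), and of 11 tested CXC chemokines 6 were higher and 2 lower (median 2.16). The monocyte attractant Ccl2 had 172 and 176 against 906 CPM. The dendritic cell products Ccl17 and Ccl22 had 0.165 and 0.193 against 20.6 CPM and 0.772 and 0.784 against 69.8 CPM. The CXCR3 ligands Cxcl9 and Cxcl11 had log2 ratios of 3.71 and 5.92 beside Cxcl10. The neutrophil attractants differed among themselves: Cxcl2 had 129 and 129 against 576 CPM, Cxcl1 42.4 and 43.3 against 48.3 CPM, and Cxcl5 9.74 and 9.19 against 2.21 CPM. Ppbp, a platelet chemokine, had 84.8 and 86.2 against 18.5 CPM and was lower. Ccl3 and Ccl4 were not analysed here.

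Genes of T cell contact were mostly higher, the inhibitory ones among them. Of 12 tested costimulation and checkpoint ligands 10 were higher and 0 lower (median 1.88), 7 of them in all 4 scalings. Cd40 had 25.0 and 25.4 against 362 CPM, Cd86 66.0 and 66.3 against 282 CPM, and Cd274, which encodes the checkpoint ligand PD-L1, 181 and 184 against 1324 CPM. Havcr2, the inhibitory receptor TIM-3, had 26.9 and 27.1 against 17.4 CPM. Of 18 tested galectin and immunosuppression genes 12 were higher (9 in all 4 scalings) and 2 lower: Socs1, a brake on cytokine signalling, had 0.772 and 0.844 against 23.5 CPM, while the xenobiotic receptor Ahr had 46.4 and 45.3 against 10.3 CPM. Lgals1, galectin 1, had 494 and 492 against 372 CPM.

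Genes of macrophage activation did not follow one polarisation. Nos2, the inducible nitric oxide synthase, had 14.6 and 14.4 CPM against 512 CPM (35.3-fold, 33.7 to 36.9). Irg1, the enzyme that makes itaconate, had 92.8 and 91.3 against 1575 CPM. Of genes linked to alternative activation, Retnla was higher as given above and Chi3l3 had 237 and 237 against 1134 CPM. Arg1, arginase 1, stood at positions 5, 5 and 19 among all genes by the authors' FPKM (5154, 5171 and 2066 FPKM) and had 6539 and 6575 against 4190 CPM. Its log2 ratio was -0.65, and -1.30 with library totals. The mannose receptor Mrc1 had 1482 and 1483 against 533 CPM and was 2.78-fold lower (2.73 to 2.84), and Cd163, the haemoglobin scavenger receptor, had 299 and 298 against 114 CPM and was 2.61-fold lower (2.51 to 2.73).

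Within the macrophage list 8 of 15 tested members were higher and 2 lower, with a median of 1.09 that became 0.44 with library totals. Fcgr1, the high-affinity IgG receptor, had 185 and 185 against 1956 CPM, and the complement chains C1qa, C1qb and C1qc had log2 ratios of 1.87, 2.57 and 2.06. Emr1 had 237 and 237 against 393 CPM, and the clearance receptor Mertk 168 and 169 against 235 CPM. Of 15 tested markers of resident peritoneal macrophages 4 were higher and 3 lower, with a median of -0.21. With library totals 2 were higher and 6 lower (median -0.87), and with GC centring the median was 0.20. Gata6, the factor that sets up the resident peritoneal programme, had 31.3 and 30.7 against 10.9 CPM (2.85-fold lower, 2.49 to 3.28), and Tgfb2, a growth factor gene of the same programme, 21.3 and 22.0 against 4.91 CPM. Timd4, the phosphatidylserine receptor of long-lived macrophages, had 4.37 and 3.98 against 51.4 CPM and was higher. Gata6 and Timd4 thus lay on opposite sides.

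Uptake and degradation genes differed by function. Of 22 tested cathepsins and lysosomal enzymes 13 were higher and 1 lower (median 1.19), although 6 were higher in all 4 scalings. Ctsk, a collagen-cleaving protease, had 31.3 and 30.3 against 589 CPM, and Ctsl 1838 and 1823 against 908 CPM. Among 15 tested complement genes 8 were higher and 1 lower: Cfb, of the alternative pathway, had 41.4 and 40.9 against 1433 CPM. Of 16 tested scavenger and clearance receptors 5 were higher and 5 lower (2 and 7 with library totals), among the latter Cd36 (2774 and 2795 against 1284 CPM). In iron handling, Hmox1, the haem-degrading enzyme, had 1615 and 1616 against 9948 CPM, and the ferritin chains Ftl1 and Fth1 had log2 ratios of 2.42 and 1.76. The lipid handling list showed no common direction, with 5 of 19 tested members higher and 5 lower and a median of 0.21 that became -0.45 with library totals. The cholesterol hydroxylase Ch25h had 1.52 and 1.54 against 95.8 CPM, whereas the desaturases Scd1 and Scd2 had log2 ratios of -1.67 and -1.61.

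Markers of cells other than macrophages and dendritic cells also differed. Of 14 tested neutrophil markers 12 were higher and 1 lower (median 4.18), and their summed level was 296 and 296 CPM in high NT against 1852 CPM in low NT. Mmp9, a gelatinase that macrophages also make, held 200 and 200 CPM of this sum in high NT and 1098 CPM in low NT. S100a9, a calprotectin chain, had 3.56 and 3.74 against 125 CPM, and the granule protein Ngp 0.722 and 0.482 against 80.4 CPM. Cxcr2, the neutrophil chemokine receptor, had 35.4 and 35.1 against 16.6 CPM and was lower. Camp, another granule gene, had 4 and 0 counts in high NT and 311 in low NT. Of 15 tested monocyte markers 9 were higher and 1 lower, with the factor XIII gene F13a1 (1924 and 1931 against 907 CPM) the lower.

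Lymphocyte markers were low in all libraries. The T cell list summed to 162 and 162 CPM against 249 CPM, and 13 of its 19 tested members were higher and 4 lower. Il7r, with a log2 ratio of 0.73, held 86.0 and 87.1 CPM of this sum in high NT and 144 CPM in low NT. Cd3e, a chain of the T cell receptor complex, had 6, 17 and 72 counts, or 0.0760 and 0.205 against 3.61 CPM. Cd3d, another chain of the complex, had 31.3 and 29.1 against 4.11 CPM, so members of a single complex went opposite ways. The B cell list summed to 45.1 and 46.0 against 65.6 CPM, with 5 of 10 tested members higher and 3 lower, and its median of 1.09 became -0.08 with library totals and 0.54 without high NT repeat 1. The natural killer list had 3 tested members and summed to 6.10 and 6.09 against 131 CPM, of which Klrk1, an activating receptor that T cells also carry, held 122 CPM.

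Mesothelial and epithelial markers went the other way. Of 12 tested members 9 were lower in low NT and 1 higher, all 10 of them in each of the 4 scalings, with a median of -1.75 and a summed level of 898 and 903 CPM against 253 CPM. The keratin gene Krt8 had 146 and 147 CPM against 12.4 CPM (11.8-fold lower, 10.4 to 13.4), and the membrane glycoprotein gene Gpm6a 207 and 208 against 21.1 CPM (9.83-fold lower, 8.93 to 10.8). The mesothelial factor Wt1 had 69.7 and 71.0 against 36.1 CPM, and mesothelin (Msln) 3.62 and 3.53 against 5.22 CPM. The fibroblast list was mixed. By members, 4 of 7 tested were higher and 1 lower (2 and 1 in all 4 scalings), with a median of 1.18, or 0.52 with library totals. By summed level, the list had 212 and 209 CPM against 79.8 CPM. Dcn, a matrix proteoglycan and the list's most abundant member, had 194 and 191 against 39.1 CPM and was the lower one. Tagln, an actin-binding protein, had 1.54 and 1.56 against 8.38 CPM. Defb29, which the tumour line was engineered to express, had 105, 113 and 30 counts, or 1.33 and 1.36 against 1.504 CPM. Reads of the transgene were not separated from those of the animal's own gene. The leukocyte gene Ptprc (CD45) had 638 and 640 against 1065 CPM. The part of these other cell types' RNA in the differences of the preceding lists was not tested.

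**Figure D4:**
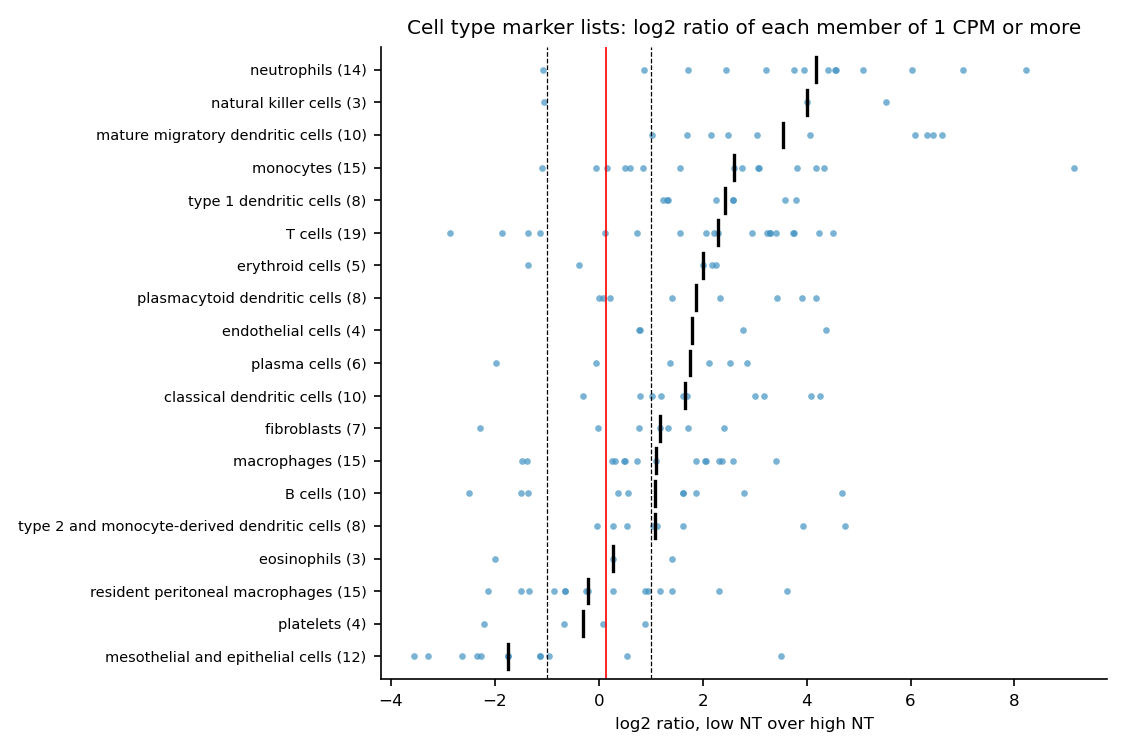
Each row is a cell type marker list with its number of tested members in brackets, each point a member's log2 ratio of low NT over high NT, and the black bar the list's median; the red line is the median of all tested genes, 0.13. Neutrophil markers (4.18) stand at the top and mesothelial and epithelial markers (-1.75) at the bottom, and the dashed lines mark 2-fold; lists with fewer than 3 tested members are not drawn.

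With TMM scaling the endoplasmic reticulum folding and DNA replication lists had few called genes. The ribosomal, respiratory chain and actin lists had medians of 0.96, 1.04 and 1.31, and the proteasome list had a median of 0.66. Of 18 tested genes of endoplasmic reticulum folding 0 were higher and 3 lower (median -0.24), or 8 lower with library totals: Dnajc3, a co-chaperone, had 397 and 394 against 122 CPM, and the main chaperone Hspa5 4142 and 4159 against 3079 CPM. Of 14 tested heat shock chaperones 3 were higher and 2 lower (1 and 9 with library totals), with Hsp90ab1 at 601 and 599 against 1963 CPM and Hspa1b at 354 and 352 against 162 CPM. Of 24 tested genes of DNA replication and mitosis 2 were higher and 4 lower (median 0.02), or 0 and 7 with library totals. The proliferation marker Mki67 had 205 and 204 against 101 CPM, the topoisomerase Top2a 143 and 141 against 56.5 CPM and the mitotic kinase Aurka 3.13 and 2.87 against 9.23 CPM. Of 23 tested genes of the ribosomal protein list 10 were higher and 0 lower (median 0.96), 7 of them higher in all 4 scalings. The list ran from Rpl5 at -0.75 to Rps14 at 2.97. Rps16, a ribosomal protein gene outside the list, had a log2 ratio of 6.35. Of 22 tested respiratory chain genes 11 were higher (median 1.04), but 2 in all 4 scalings. Of 22 tested actin and motility genes 16 were higher (median 1.31), among them the monomer-binding protein Pfn1 (135 and 134 against 981 CPM), and 7 in all 4 scalings. In the respiratory chain and actin lists the count of higher genes therefore rests on the scaling.

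Satb1, after whose decrease the experiments are named, had a lower value in the control of the low experiment. It had 1233, 1193 and 170 counts, or 15.6 and 14.4 CPM against 8.53 CPM, 1.76-fold less in low NT (1.504 to 2.07). The log2 ratio was -0.81, short of the 2-fold used for a call. It was -1.47 with library totals and -0.39 with GC centring. Of 14 tested genes of Satb1 and its chromatin partners 4 were higher and 1 lower, of which 1 and 0 in all 4 scalings. Pml, which organises nuclear bodies and is induced by interferon, had 35.5 and 35.5 against 530 CPM, and the chromatin remodeller Smarca5 295 and 293 against 143 CPM. Of 20 tested myeloid transcription factors 12 were higher and 2 lower (6 and 2 in all 4 scalings; 8 and 3 with GC centring), with Sfpi1, which encodes PU.1, at 43.1 and 42.9 against 370 CPM, and Zeb2 at 8.43 and 9.03 against 1.55 CPM. Notch1, a receptor of the Notch pathway, had 35.3 and 34.8 against 132 CPM, and its target Hes1 4.67 and 5.05 against 1.55 CPM.

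Many transcripts that lack a poly(A) tail had far lower values in low NT, and some had no count there. Rmrp, the RNA of a processing ribonuclease, had 942 and 940 CPM in high NT and no count in low NT. It was at least 6257-fold lower by the floor of 3 counts, and at least 5088-fold by the exact 95% counting interval. Rpph1, the RNA of ribonuclease P, had 1384 and 1392 CPM against 3 counts, a ratio of 9228-fold lower (3158 to 44750). The replication-dependent histone mRNAs, which end in a stem-loop instead of a poly(A) tail, were lower in 22 of 22 tested members, with a median of -6.85. Fitted ratios of histone genes at 0 depend on the prior count, and with those genes at their bound the median was -5.97. Hist1h1c, an H1 linker histone, kept the most, at 154 and 153 against 69.7 CPM. Hist2h2bb had 131 and 136 CPM against no count, at least 886-fold lower by the floor and 721-fold by the interval. Of 6 histone variant genes, which carry poly(A) tails and were listed after values had been seen, 3 were higher and 1 lower. In all 4 scalings 0 were higher and 1 lower. H3f3b had 770 and 775 against 2244 CPM. Of 40 tested small nucleolar and Cajal body RNA genes 31 were lower and 1 higher (Snord96a, 400 and 401 against 987 CPM). With library totals 34 of the 40 were lower and 0 higher. The summed level over all 108 genes of this kind was 2664 and 2677 CPM against 3460 CPM with TMM. This ratio of 1.30 is short of 2-fold, and the sum includes Snord96a.

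Nuclear long RNA differed by gene. Malat1, whose mature end has no poly(A) tail, had 22451 and 22484 against 1123 CPM, and took 2.62%, 2.62% and 0.0828% of all counts. Kcnq1ot1, an imprinted antisense RNA, had 1214 and 1231 against 159 CPM. Neat1, which makes a short form with a poly(A) tail and a long form without one, had 634 and 633 against 572 CPM, and Xist, a polyadenylated nuclear RNA, 786 and 787 against 993 CPM. By annotated class, protein-coding genes had a median log2 ratio of 0.23 (11976 genes), lincRNA genes of -1.12 (63 genes) and antisense genes of -1.28 (62 genes). Histone and short noncoding RNA genes together took 2.55%, 2.54% and 0.469% of the counts. When these genes were not tested, 3753 genes were higher and 2883 lower, so they made up a small share of the calls. The labels give no difference in library preparation, and the part of this RNA difference in the other ratios was not tested.

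The ratio also moved with properties of the genes. In the quartile of tested genes with the lowest GC content of the transcript (31.0% to 44.7%) 11.2% were higher and 32.6% lower, and in the highest quartile (54.1% to 78.4%) 51.8% were higher and 8.75% lower. Across 12335 genes with a value, Spearman's rho with the log2 ratio was 0.41 for GC content, -0.23 for intron length and -0.21 for exon length, and 0.30 for mean level across all 13717. These are correlations across genes, which share the libraries and are not independent. Intron length showed the opposite slope, with 38.4% higher in the quartile with the shortest introns and 17.0% in the quartile with the longest. Subtracting the median of genes of like GC content left 3013 genes higher (24.4%) and 2056 lower (16.7%) of 12335. With this centring all 26 interferon genes, all 10 MHC class II genes and all 15 NF-kappaB genes were still higher, and 10 of 12 mesothelial and epithelial genes lower. The actin list went from 16 to 9 higher and the ribosomal list stayed at 10. Why the ratio follows these properties was not tested.

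**Figure D5:**
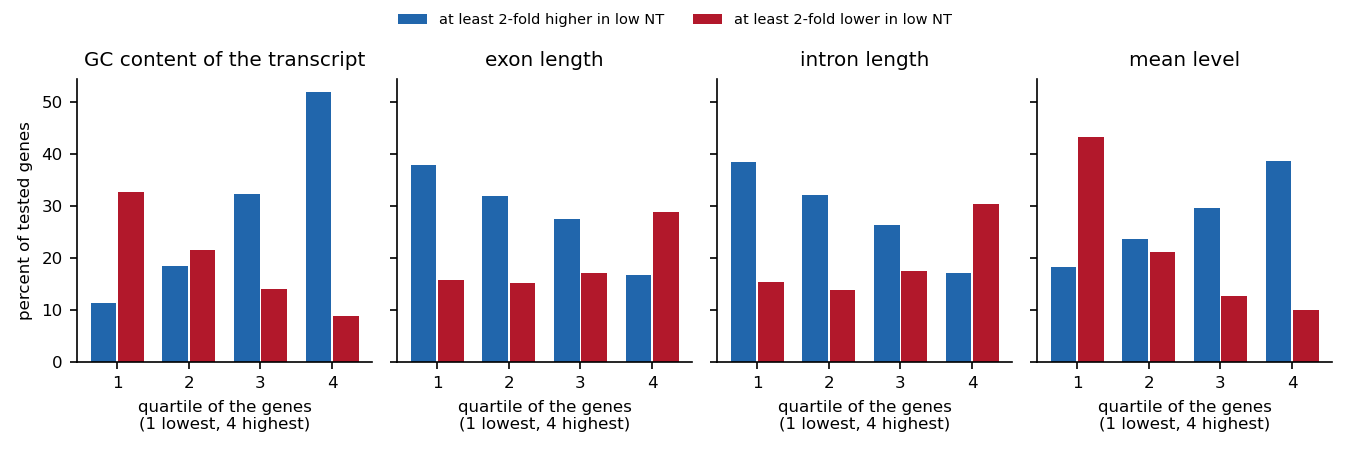
Percent of tested genes at least 2-fold higher (blue) or lower (red) in low NT, in quartiles of the genes by GC content, exon length, intron length and mean level. The share of higher genes climbs from 11.2% to 51.8% with GC content and drops from 38.4% to 17.0% with intron length.

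The largest falls outside the histone and short RNA genes included Xkrx, a gene of the X-linked XK family, at 459 and 455 CPM against 1.91 CPM, and Alx4, a homeobox factor, at 29.4 and 27.8 CPM against 2 counts. Lower members of the lists with a vascular or matrix role were Thbd, the thrombin-binding thrombomodulin (38.6 and 38.4 against 6.67 CPM), the protease Adamts1 (29.8 and 29.6 against 5.52 CPM), Timp3, an inhibitor of metalloproteinases (136 and 133 against 46.5 CPM), and Spp1, osteopontin (1521 and 1529 against 607 CPM). Of the metalloproteinase genes, Mmp9 was higher as given above, and so was Mmp14 (51.2 and 51.1 against 451 CPM). Plaur and Plau, the urokinase receptor and its ligand, had log2 ratios of 2.12 and 1.90. Vldlr, the lipoprotein receptor of the amino acid stress list, had 14.8 and 15.4 against 1.71 CPM, while Slc3a2, the heavy chain of amino acid transporters, had 275 and 280 against 913 CPM. These lists held members on both sides, with 4 of 13 coagulation genes, 5 of 15 metalloproteinase genes and 3 of 15 amino acid stress genes higher, against 3, 5 and 4 lower. With library totals these became 4, 4 and 1 higher, against 5, 6 and 6 lower.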

How the data were processed

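RNA-seq values of the 3 NT libraries were used. Per the file headers, the deposited table holds an FPKM value and a count per gene and library; its counts are taken for the authors' estimated counts, because the submitters' processing notes list RSEM 1.2.12, DESeq2 and genome build mm9. The deposited counts were whole numbers. A few genes have a count of 0 beside an FPKM above 0.1 (44 and 45 in the high NT libraries, 0 in low NT); Atp6v0c is one. The FPKM values of the authors, scaled by them to gene length and depth, served for comparing genes. Aligner, annotation, filters and strand handling were not given in the sources used here. RSEM divides reads among near-identical genes, so values of histone, paralogous and antisense genes are uncertain.

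Counts were scaled with TMM in edgeR 4.0.16 (R 4.3.3); the log2 ratio is low NT minus the mean of the high NT repeats, with a prior count of 2, for genes averaging at least 1 CPM over the experiments. Exact 95% counting intervals were computed with scipy 1.17.1. A count of 0 allows up to 3 counts (0.1504 CPM in low NT), and this floor gave every fold stated as at least. No test was made. The ratios were tested on simulated data with 200 changed genes. GC content and lengths came from GENCODE vM21, a later build than mm9.

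The comparison, the 58 gene lists (846 of 883 entries matched) and the rule for named genes were chosen with earlier results of these data known. The rule takes the 15 largest rises and falls of at least 10 CPM without unnamed loci, of each list the 2 most abundant members, the 3 largest ratios and members at 0, and fixed genes; other genes in the text are list members chosen after their values were seen. Alternatives were library totals, DESeq2 1.42.0 size factors, upper-quartile scaling, short and histone RNA left out of the scaling, a prior count of 0.5, other filters, 4-fold calls, each repeat alone, summed repeats and FPKM; GC centring (20 classes) and leaving histone and short RNA untested were added after seeing the data.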

Additional observations from a re-analysis of the deposited data

How the results depend on the processing

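With library totals the count of higher genes was 2069 and of lower genes 5065, against 3772 and 2979 with TMM. Without a filter on level 8751 genes were lower, and with a filter of 10 CPM 1179 were. At a 4-fold threshold 1471 genes were higher and 1298 lower. Without 1 of the high NT repeats, 3762 to 3780 genes were higher and 2965 to 2978 lower. No other alternative moved either count by 1.5 times or more: DESeq2 size factors gave 4029 and 2775, upper-quartile scaling 2797 and 3918, and the deposited FPKM values 3253 and 3155. Of list medians of at least 1 in size, that of the B cells turned to -0.0785 with library totals, and those of the T cells (-0.87) and fibroblasts (-0.56) turned with the filter of 10 CPM, which tests fewer genes. Of 59 list medians of any size, 9 changed sign with library totals, 3 with upper-quartile scaling, 3 with the filter of 10 CPM, 2 with FPKM and 1 with GC centring. The B cell median, 1.09, was 0.54 without high NT repeat 1. Whether ratios of single genes moved by more than their counting intervals depended on the setting. With library totals the ratio of 259 named genes left its interval and that of 25 stayed within it. With upper-quartile scaling these numbers were 234 and 50, with GC centring 225 and 54, and with FPKM 214 and 70. DESeq2 size factors gave 136 and 148. With a prior count of 0.5 and with summed repeats all 284 stayed within their intervals. The log2 ratio of Cd74 was 5.50 with TMM, 4.84 with library totals and 4.67 with GC centring. No paired analysis was possible because low NT has 1 library and no test was made. Depth limits low NT, where a count of 0 allows up to 0.1504 CPM, and a single library per experiment limits every ratio.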

Other observations

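Receptor genes of the olfactory system, not covered above, had counts in both experiments. Summed over 310 vomeronasal receptor genes the level was 362 and 362 CPM in high NT and 50.4 CPM in low NT, and all 8 tested members were lower. Summed over 1113 olfactory receptor genes it was 473 and 482 CPM against 130 CPM, with 1 of 9 tested members higher and 4 lower. In low NT 273 of the vomeronasal and 991 of the olfactory receptor genes had no count, against 54 and 105 without a count in either high NT library. These numbers are not at like depth, as low NT held 27029554 counts and the high NT libraries 67774712 and 71272720. Of all 27634 genes, 9623 had no count in low NT, and 4655 and 4629 in the high NT libraries taken singly. The part of depth in the receptor genes at 0 was not tested.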
